A study of Mus musculus with 2 samples.

Results

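Mature neutrophils of the lung were examined in 2 single-cell RNA libraries from mice with osteosarcoma, one from animals given 1V209-Cho-Lip and one from animals given PBS. A barcode was counted as a mature neutrophil when it held at least 500 unique molecular identifiers (UMIs, each standing for 1 captured RNA molecule) and 200 genes, with at most 20% mitochondrial UMIs, and met a marker rule. The rule asked that S100a8 and S100a9 together take at least 3% of the UMIs and that Csf3r, Cxcr2, Retnlg and G0s2 together have at least 2 UMIs. It also asked for at most 2 UMIs of the granule genes Ngp, Camp and Ltf, and for no UMI of Cd79a, Cd3e or Cdh5. It found 5441 cells among 28280 barcodes that passed the filters, of which 4117 came from the 1V209-Cho-Lip library and 1324 from the PBS library. The cells were thus chosen by the measured values of these marker genes, so the levels of those genes are given only as a description.

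All mice were female Balb/C animals carrying K7M2, a mouse osteosarcoma line, implanted at an orthotopic site, and both groups bore tumours. The agent is labelled 1V209-Cho-Lip, where 1V209 is known as a small-molecule agonist of Toll-like receptor 7 (TLR7); the dose, route and time of sampling were not given in the sources used here. Lungs of 3 mice were pooled into each 10x Genomics library, and there was 1 library a group. No difference between the groups therefore has a replicate check, no test between conditions is possible, and treatment, library and pool cannot be told apart. The intervals below are 95% intervals that cover counting error alone.

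Neutrophils are short-lived granulocytes made in the bone marrow, where they fill primary, secondary and gelatinase granules in that order and shut down the granule genes as they mature. Released cells carry Csf3r, the receptor of granulocyte colony-stimulating factor, and Cxcr2, the receptor that draws them towards CXC chemokines, and they keep a large store of the calcium-binding proteins S100a8 and S100a9. The lung holds a standing pool of them in its capillaries, and in tumour-bearing animals neutrophils have been described both as cells that kill tumour cells and as cells that restrain T cells.

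Mature neutrophils made up 30.0% of the barcodes passing the filters in the 1V209-Cho-Lip library (4117 of 13720; exact Clopper-Pearson interval 29.2 to 30.8%) and 9.09% in the PBS library (1324 of 14560; 8.63 to 9.57%). The ratio of the shares was 3.30 (3.10 to 3.51). Nearly all of this separation was already present at the S100a8 and S100a9 step, which kept 4939 barcodes in the 1V209-Cho-Lip library and 1600 in the PBS library. Of these, the other steps kept 83.4% in the 1V209-Cho-Lip library and 82.8% in the PBS library, a ratio of 1.01 (0.947 to 1.07). A share of barcodes does not say how many cells a lung held, since a fall of other cell types raises it as well. Barcodes that met the other criteria but had over 2 UMIs of Ngp, Camp and Ltf, the products of less mature neutrophils, numbered 87 in the 1V209-Cho-Lip library and 19 in the PBS library.

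Few cells stood near the thresholds. With the rest of the rule met, 91 cells of the 1V209-Cho-Lip library and 64 of the PBS library lay just inside the S100a8 and S100a9 threshold, at 3 to 3.5% of UMIs, and 99 and 46 lay just outside it, at 2.5 to 3%. Cells at 2 receptor UMIs numbered 19 in the 1V209-Cho-Lip library and 21 in the PBS library, while 12 and 11 missed the rule at 1 UMI. No granule UMI at all was seen in 3783 of the 1V209-Cho-Lip cells and 1284 of the PBS cells. The rule against Cd79a, Cd3e and Cdh5 removed 691 barcodes from the 1V209-Cho-Lip library and 235 from the PBS library, mostly for a Cdh5 UMI (423 and 118).

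The 1V209-Cho-Lip neutrophils held more UMIs per cell. Their median was 2402 UMIs and 872 genes, against 1451.5 UMIs and 635 genes in the PBS neutrophils, a ratio of 1.65 in UMIs. The same ratio was 1.21 in barcodes with B-cell markers (medians of 2555 and 2114 UMIs), 1.03 in barcodes with endothelial markers and 1.12 over all barcodes outside the rule. When every neutrophil was thinned at random to 500 UMIs, the medians were 279 genes in the 1V209-Cho-Lip library and 285 in the PBS library. Mitochondrial genes took 0.772% of neutrophil UMIs in the 1V209-Cho-Lip library and 0.729% in the PBS library, and the ribosomal RNA gene Rn18s-rs5 took 6.11% and 8.32%. In all, the neutrophils contributed 11392068 UMIs to the 1V209-Cho-Lip sum and 2149205 to the PBS sum, so the PBS levels carry the wider intervals. The libraries shared 268 barcode sequences, among them 5 that met the rule in both.

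**Figure D1:**
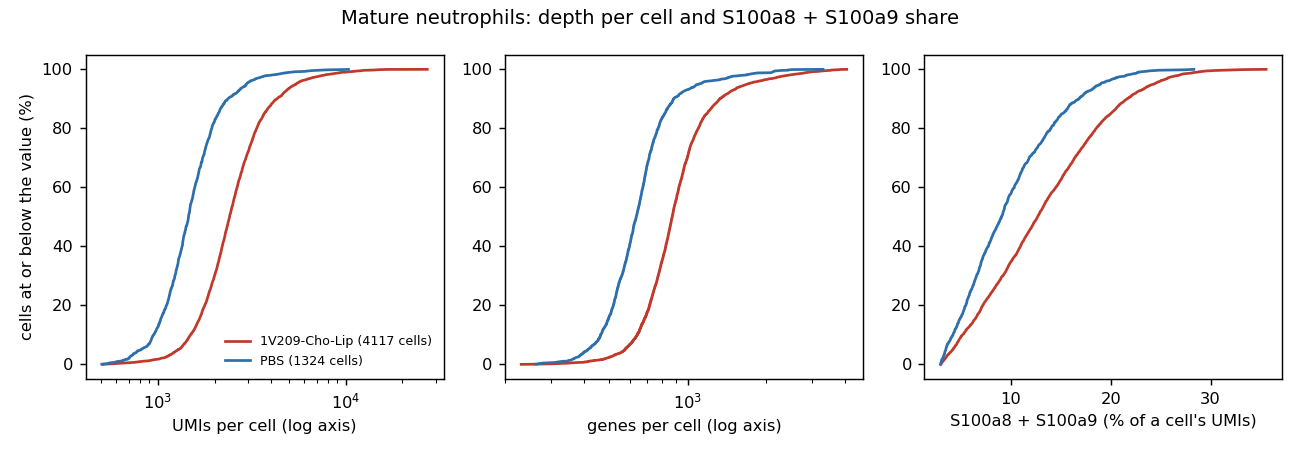
Cumulative share of mature neutrophils (y axis, %) against UMIs per cell, genes per cell (both log axes) and the percent of a cell's UMIs from S100a8 and S100a9, with 1 line per library. The 1V209-Cho-Lip line lies to the right in all 3 panels, with medians of 2402 UMIs, 872 genes and 12.7% S100, against 1451.5 UMIs, 635 genes and 9.07% S100 in the PBS library.

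Detection of a marker does not by itself bear the label out. Every alveolar epithelial, fibroblast and monocyte marker also had UMIs in both sets of neutrophils. The summed level of neutrophil markers outside the rule was, however, above that of every other cell type's list. All 15 neutrophil markers that the rule did not use were detected in both libraries, with a summed level of 15611 CPM (UMIs of a gene per 1000000 UMIs of the library's neutrophils) in the 1V209-Cho-Lip library and 14498 CPM in the PBS library. Among them were Trem1, an amplifying receptor of myeloid cells (2618 and 2760.1 CPM), Hdc, which makes histamine (2612 and 2942 CPM), Il1r2, the decoy receptor of interleukin-1 (3139.6 and 4172 CPM), and Ly6g, the surface antigen used to stain mouse neutrophils (90.1 and 60.5 CPM). The azurophil granule genes Elane, Ctsg, Ms4a3 and Bpi had no UMI in either set of neutrophils, and Mpo had 0.176 CPM in the 1V209-Cho-Lip library and no UMI in the PBS library. The less mature neutrophils, left out for Ngp, Camp and Ltf UMIs, had no UMI of Elane, Ctsg, Bpi or Mpo in either library. Ms4a3 had 1.83 CPM there in the 1V209-Cho-Lip library and no UMI in the PBS library. The lack of these genes therefore does not set the mature cells apart from the less mature ones. Of the genes that chose the cells, S100a8 stood at 49094 and 33014 CPM, S100a9 at 81022 and 64071 CPM, G0s2 at 6959 and 8398 CPM, Retnlg at 4931 and 4840.4 CPM, Csf3r at 1539 and 1879 CPM, and Cxcr2 at 1067 and 809 CPM, in the 1V209-Cho-Lip and the PBS library in that order.

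RNA of other cell types was present, and some of it differed between the libraries. Haemoglobin genes and Alas2, the red-cell marker list, summed to 109 CPM in the 1V209-Cho-Lip neutrophils and 1293 CPM in the PBS neutrophils, and all 5 were lower in the 1V209-Cho-Lip library. Airway epithelial markers had the largest sum, 2851 CPM in the 1V209-Cho-Lip library and 3020.2 CPM in the PBS library, with 1 of 4 measured genes higher and 1 lower. T and NK cell markers summed to 72.9 and 221 CPM, B-cell markers to 11.9 and 23.7 CPM, and endothelial markers to 245 and 330 CPM. Cd3d gave 40.7 and 104.7 CPM of the T and NK sum, above its 9.11 and 5.36 CPM in B-cell-marker barcodes. Alveolar epithelial markers summed to 1707 and 1242 CPM, with 6 of 9 at least 1.5-fold higher in the 1V209-Cho-Lip library, and monocyte markers summed to 1447 and 1981 CPM (5 of 11 higher and 1 lower), of which Nr4a1, a gene neutrophils use as well, gave 979 and 1566 CPM. Neutrophil RNA was also found in other barcodes. S100a8 and S100a9 took 0.207% of the UMIs of B-cell-marker barcodes in the 1V209-Cho-Lip library and 0.0524% in the PBS library.

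Between the libraries, 8865 genes had at least 50 UMIs over both sets of neutrophils and were compared by the ratio of their CPM. A ratio of at least 1.5 or at most its inverse was used as a size threshold, not as a test. Such a ratio compares shares of UMIs and not UMIs per cell, whose median was 1.65 times higher in the 1V209-Cho-Lip neutrophils. A gene level or lower by CPM can thus still have as many or more UMIs per cell there. Of all measured genes, 1098 (12.4%) were higher in the 1V209-Cho-Lip neutrophils by this threshold and 1119 (12.6%) were lower. Every count of list genes below is to be read beside these shares. The median log2 ratio of all genes was -0.07. Another scaling moves this balance: higher genes were 49.5% of those past the threshold here, 59.8% under TMM scaling (which shifts all log2 ratios by 0.07) and 70.7% under median-of-ratios scaling (a shift of 0.17). Genes and lists within that distance of 0 are therefore given no direction.

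**Figure D2:**
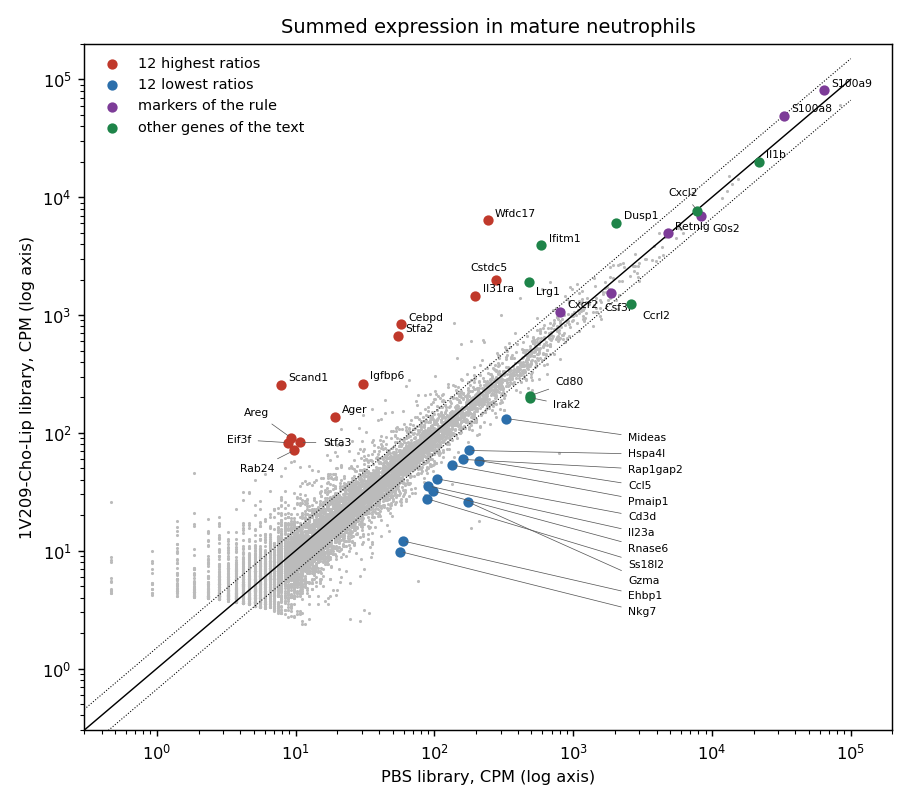
Summed CPM of each measured gene in mature neutrophils, in the 1V209-Cho-Lip library (y) and the PBS library (x), both on log axes; the solid line marks equal levels and the dotted lines 1.5-fold. Wfdc17 (6394 and 243 CPM) and Ifitm1 (3900.2 and 590.5 CPM) stand far above the line at high levels, while Il1b and Cxcl2 lie near it and Ccrl2, Cd80 and Irak2 lie below it. Genes without a UMI in one of the libraries are not drawn.

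Among genes above 500 CPM in the 1V209-Cho-Lip neutrophils, the ratio was largest for Wfdc17, which codes for a small secreted protein of the whey acidic protein family of protease inhibitors (chr11:83703991-83706268, GRCm38, plus strand). It reached 6394 CPM in the 1V209-Cho-Lip neutrophils and 243 CPM in the PBS neutrophils, a ratio of 26.3 (24.2 to 28.7). At an even 500 UMIs per cell, 77.1% of 1V209-Cho-Lip neutrophils and 7.63% of PBS neutrophils had a Wfdc17 UMI; without thinning the shares were 91.9 and 13.4%. In B-cell-marker barcodes, which should lack it, the thinned shares were 6.34 and 1.87%. The difference was spread over most cells. The 10th percentile, the median and the 90th percentile of Wfdc17 were 0.0439, 0.488 and 1.51% of a cell's UMIs in the 1V209-Cho-Lip library, and 0, 0 and 0.0656% in the PBS library. In barcodes outside the rule the Wfdc17 ratio was 8.53. The neighbouring family member Wfdc21 (chr11:83746940-83752642) had 1390.0 CPM in the 1V209-Cho-Lip neutrophils and 413 CPM in the PBS neutrophils, a ratio of 3.37 (3.15 to 3.61). Slpi, the best known antiprotease of the family, stood at 307 and 355 CPM (ratio 0.866, 0.800 to 0.937). Of 9 measured WAP antiproteases and serpins, 3 were higher by 1.5-fold and none was lower, beside 12.4 and 12.6% of all genes.

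The stefin A genes, cytosolic inhibitors of cysteine cathepsins that lie as a cluster of close copies on chromosome 16, differed alike. All 8 measured members were at least 1.5-fold higher in the 1V209-Cho-Lip neutrophils, with a median log2 ratio of 2.52. The same direction was seen, with larger ratios, in the barcodes outside the rule, where the list median was 5.29: the ratio there was 105.2 for Stfa2, 43.6 for Stfa3 and 45.3 for Cstdc5, at lower levels than in neutrophils (Cstdc5 173 CPM in the 1V209-Cho-Lip library and 3.82 CPM in the PBS library). Barcodes outside the rule include neutrophils it left out, and their part in these ratios was not tested. Csta1 and Csta2 had too few UMIs to be measured. Stfa2 had 665 CPM in the 1V209-Cho-Lip library and 54.4 CPM in the PBS library, a ratio of 12.2 (10.2 to 14.8). Cstdc5 had 1966 and 278 CPM (7.07, 6.51 to 7.68), Cstdc4 had 1677 and 597 CPM (2.81, 2.65 to 2.97) and Stfa2l1 had 1901 and 681 CPM (2.79, 2.65 to 2.94). Stfa3, Stfa1, Cstdc6 and Csta3 had lower levels, of 6.93 to 142 CPM in the 1V209-Cho-Lip library and 0.931 to 32.1 CPM in the PBS library, with ratios of 3.16 to 7.77. Reads of copies this similar can be assigned to the wrong member, so the split among them is uncertain and their ratios are not independent of each other. Their summed level was 6543 CPM in the 1V209-Cho-Lip neutrophils and 1685 CPM in the PBS neutrophils. At 500 UMIs per cell, a Cstdc5 UMI was seen in 36.1% of 1V209-Cho-Lip and 8.38% of PBS neutrophils (58.1 and 15.6% without thinning) and in 1.62 and 0% of the B-cell-marker barcodes, where 0 of 1604 PBS barcodes is the count behind the last value.

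To show how close the copies are at their start sites, the promoter windows of Stfa2 (chr16:36408314-36408613, minus strand) and Stfa2l1 (chr16:36156561-36156860, plus strand) are printed here from RefSeq on GRCm38.p6, each running from 250 bases before to 50 bases after the start. They were aligned to each other, and capitals mark bases that differ or stand opposite a gap; 275 of 304 aligned positions (90.5%) were identical.
Stfa2: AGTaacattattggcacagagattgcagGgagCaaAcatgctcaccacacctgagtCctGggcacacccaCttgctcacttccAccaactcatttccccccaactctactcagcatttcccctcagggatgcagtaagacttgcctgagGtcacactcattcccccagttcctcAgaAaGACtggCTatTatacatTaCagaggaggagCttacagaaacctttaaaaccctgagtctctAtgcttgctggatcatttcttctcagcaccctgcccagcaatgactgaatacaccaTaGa
Stfa2l1: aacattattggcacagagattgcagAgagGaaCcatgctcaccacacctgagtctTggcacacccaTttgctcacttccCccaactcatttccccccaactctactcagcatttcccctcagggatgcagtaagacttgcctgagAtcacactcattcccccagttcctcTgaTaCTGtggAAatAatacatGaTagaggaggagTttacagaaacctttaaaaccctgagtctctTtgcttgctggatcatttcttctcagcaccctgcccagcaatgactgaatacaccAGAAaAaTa
The Cstdc5 window shared 233 of 323 aligned positions with that of Stfa2 (72.1%), and the Wfdc17 window 151 of 321 (47.0%).

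Of 12 measured acute-phase and alarmin genes, 5 were higher in the 1V209-Cho-Lip neutrophils and none was lower, beside 12.4 and 12.6% of all genes. The list's median log2 ratio was 0.48 in neutrophils. It was larger in the barcodes outside the rule, at 1.66, so the direction was not particular to neutrophils. Lrg1, a leucine-rich glycoprotein stored in neutrophil granules, was on the list of neutrophil markers and had 1894 CPM in the 1V209-Cho-Lip library and 482 CPM in the PBS library (ratio 3.93, 3.69 to 4.19). Saa3, a serum amyloid A apolipoprotein, had 39.3 and 11.6 CPM (3.38, 2.26 to 5.28). Steap4, a metalloreductase, had 595 and 229 CPM (2.59, 2.37 to 2.85), and the chitinase-like Chil1 had 364 and 194 CPM (1.87, 1.69 to 2.08). Lcn2, which withholds iron from bacteria by binding their siderophores, had 1745 and 954 CPM (1.83, 1.75 to 1.91). Prok2, a small chemoattractant peptide made by neutrophils, had 296 UMIs (26.0 CPM) in the 1V209-Cho-Lip library and 1 UMI (0.465 CPM) in the PBS library, a ratio of 55.8 with an interval of 9.95 to 2213.

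Most measured secondary and gelatinase granule genes, which mark earlier stages, stayed within 1.5-fold. Of 9 measured secondary granule genes, 5 were within it, 3 were higher (Ngp, Chil3 and Lcn2) and 1 was lower (Ltf). Their median log2 ratio was 0.45. The rule limits Ngp and Ltf, so their values are not read as results, which leaves Chil3 and Lcn2. The call of Chil3 is not stable: its log2 ratio of 1.04 was 0.29 without called doublets, 0.050 in cells thinned to 500 UMIs, 0.39 with every cell weighted equally and -0.060 in cells of 1000 to 3000 UMIs. Mmp8, neutrophil collagenase, had 418 CPM in the 1V209-Cho-Lip library and 221 CPM in the PBS library (1.89, 1.72 to 2.08) and was the only one of 9 measured gelatinase granule and secretory vesicle genes past the threshold. Mmp9, the gelatinase itself, had 570.5 and 679.8 CPM (0.839, 0.793 to 0.889). Only 2 primary granule genes were measured, Prtn3 (4.74 and 1.40 CPM) and Prss57 (6.14 and 3.72 CPM), with 3 and 8 PBS UMIs behind the PBS values. Among 13 measured genes of maturation and ageing, Ltb4r1, the leukotriene B4 receptor, was higher (72.9 and 29.3 CPM) and Cd101, a surface protein gained late in mouse neutrophil maturation, was lower (123 and 194 CPM; 0.636, 0.570 to 0.711). Cxcr4, the receptor of ageing cells, had 329.9 and 448 CPM (0.736, 0.686 to 0.791).

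**Figure D3:**
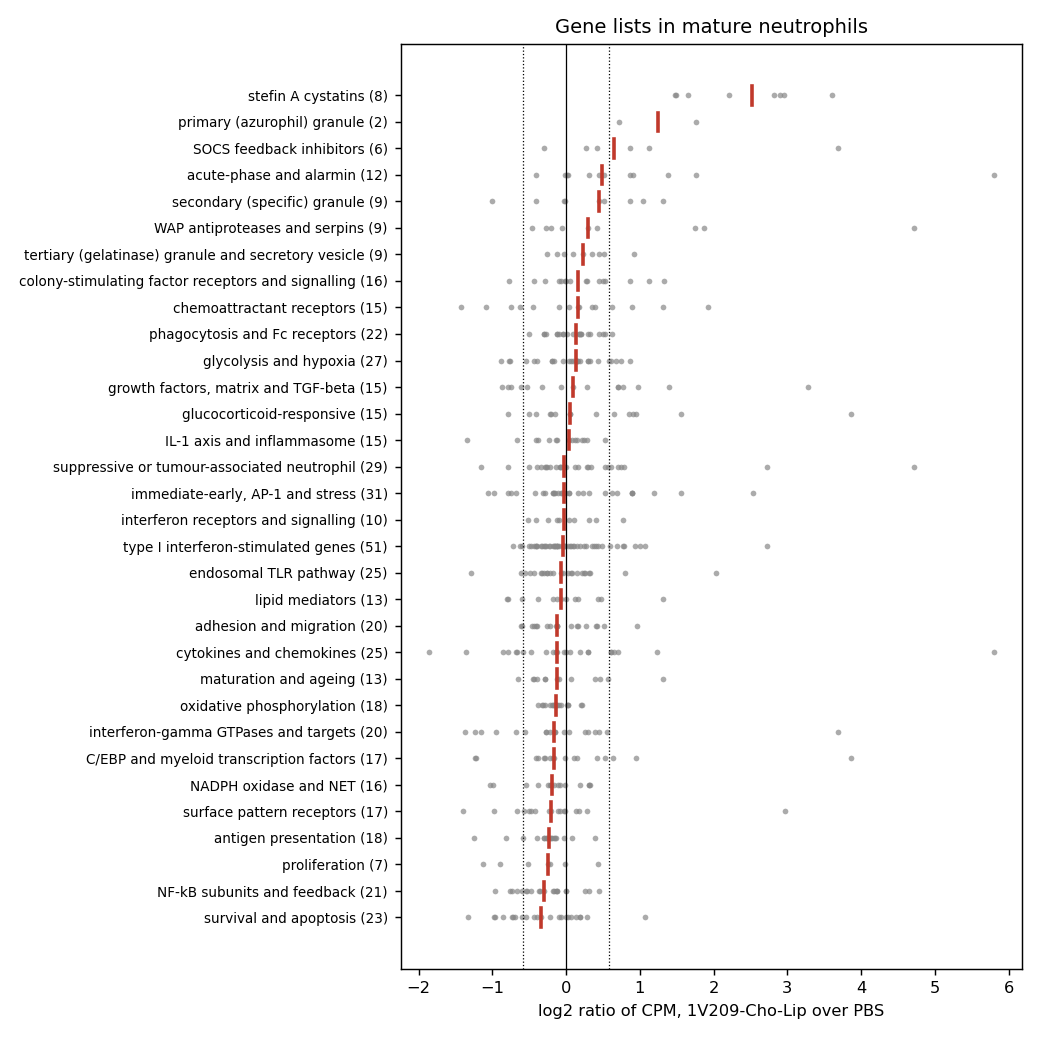
Log2 ratio of CPM, 1V209-Cho-Lip over PBS, for the measured genes of 32 functional lists; each grey point is a gene, the red bar the list median, the number in brackets the genes measured, and the dotted lines 1.5-fold. The stefin A list lies wholly to the right of 1.5-fold (median 2.52), whereas most list medians lie within 0.35 of 0.

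Genes of the interferon response, the pathway that TLR7 feeds through Irf7, mostly stayed within 1.5-fold. Of 58 listed type I interferon-stimulated genes, 51 were measured, and 40 of these stayed within it. Over all genes the share within it was 75.0%. By the threshold 8 were higher and 3 were lower, beside 12.4 and 12.6% of all genes. Their median log2 ratio was -0.04, beside -0.07 over all genes. The higher ones were led by the interferon-induced transmembrane genes, which block virus entry at membranes and sit together on chromosome 7. Ifitm1 had 3900.2 CPM in the 1V209-Cho-Lip neutrophils and 590.5 CPM in the PBS neutrophils (6.61, 6.25 to 6.99), Ifitm6 had 215 and 103 CPM (2.09, 1.82 to 2.41), Ifitm2 had 1843 and 1069 CPM (1.72, 1.65 to 1.80) and Ifitm3 had 1532 and 1097 CPM (1.40, 1.34 to 1.46), which is inside the threshold. An Ifitm1 UMI was found in 65.7% of 1V209-Cho-Lip and 19.3% of PBS neutrophils at 500 UMIs, against 3.78 and 0.187% of B-cell-marker barcodes; unthinned, the neutrophil shares were 84.8 and 33.9%. The nucleic acid sensor Zbp1 (84.8 and 42.3 CPM), the oligoadenylate synthetase Oas1a (74.4 and 43.7 CPM) and the related Oasl2 (70.0 and 36.8 CPM) were also higher.

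Other members of the same response differed in direction. Isg15, a ubiquitin-like modifier, had 2293 CPM in the 1V209-Cho-Lip neutrophils and 2888 CPM in the PBS neutrophils (0.794, 0.772 to 0.816), while Rsad2, the antiviral viperin, had 272 and 421 CPM (0.647, 0.600 to 0.697) and its neighbour in function Cmpk2 43.3 and 71.2 CPM (0.608, 0.506 to 0.734). Ifit1 stood at 151 and 112 CPM (1.36, 1.18 to 1.56), Ifit3 at 33.4 and 45.1 CPM and Irf7 at 276 and 270.3 CPM. Among 20 measured targets of interferon gamma, 1 was higher and 5 were lower, beside 12.4 and 12.6% of all genes. The higher one was Socs1, an inhibitor of cytokine receptor kinases, with 17.9 CPM (1V209-Cho-Lip) and 1.40 CPM (PBS, 3 UMIs; ratio 12.8, 4.33 to 62.7). Cd274, which codes for the checkpoint ligand PD-L1, was among the lower ones, with 62.5 and 139 CPM (0.449, 0.392 to 0.516); at 500 UMIs it was seen in 3.23% of 1V209-Cho-Lip and 5.59% of PBS neutrophils and in 2.56 and 4.05% of B-cell-marker barcodes. Of 6 measured SOCS genes 3 were higher, with Socs3 at 208 and 114 CPM (1.83, 1.60 to 2.09).

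The receptor that 1V209 is known to engage was barely detected in neutrophils. Tlr7 had 14.6 CPM in the 1V209-Cho-Lip library and 20.5 CPM in the PBS library (0.712, 0.508 to 1.02), and its relative Tlr8 had 36.0 and 34.0 CPM. Of 25 measured genes of the endosomal Toll-like receptor pathway, 2 were higher and 2 were lower. The adaptor Myd88 had 216 and 174 CPM (1.24, 1.11 to 1.39) and the kinase Irak4 64.9 and 54.9 CPM, whereas Irak2, a kinase of the same signalling complex, had 199 CPM in the 1V209-Cho-Lip neutrophils and 489 CPM in the PBS neutrophils (0.408, 0.379 to 0.439). At 500 UMIs, an Irak2 UMI was seen in 9.55% of 1V209-Cho-Lip and 21.6% of PBS neutrophils, and in 7.83 and 5.99% of B-cell-marker barcodes. Of 17 measured surface pattern receptors 1 was higher, Tlr1 (40.0 and 5.12 CPM; 7.82, 4.33 to 15.8), and 3 were lower: Nod1 (11.5 and 30.2 CPM), Nod2 (72.2 and 115 CPM), both cytosolic sensors of bacterial cell wall, and Clec5a (30.5 and 60.0 CPM), a C-type lectin of myeloid cells. Over all genes, 12.4% were higher and 12.6% lower. Tlr4, the endotoxin receptor, stood at 276 and 297 CPM and Cd14, its co-receptor, at 2790.3 and 2293 CPM.

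As shares of UMIs, the main inflammatory products of neutrophils were nearly level. Il1b, which codes for interleukin-1 beta, had 19980.3 CPM in the 1V209-Cho-Lip library and 21888 CPM in the PBS library (0.913, 0.904 to 0.922). The chemokine gene Cxcl2 had 7690.4 and 7868 CPM (0.977, 0.961 to 0.994). An Il1b UMI was found in 99.6% of 1V209-Cho-Lip and 99.8% of PBS neutrophils at 500 UMIs, and in 18.8 and 6.98% of B-cell-marker barcodes. The middle of the cells was as close, with Il1b at a median of 2.08% of a cell's UMIs (10th to 90th percentile 1.07 to 3.45%) in the 1V209-Cho-Lip library and 2.23% (1.14 to 3.59%) in the PBS library. Of 25 measured cytokine and chemokine genes, 6 were higher and 6 were lower, beside 12.4 and 12.6% of all genes. Among the lower ones were Il23a, the specific subunit of interleukin-23 (35.5 and 90.7 CPM; 0.391, 0.329 to 0.466), the chemokines Ccl3 (51.3 and 88.4 CPM) and Ccl4 (280.0 and 508 CPM), and Il1rn, the interleukin-1 receptor antagonist (289 and 458 CPM; 0.630, 0.586 to 0.677).

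Subunits and feedback genes of NF-kB, the factor that drives many of these genes, leaned lower under the main scaling. None of 21 measured genes was 1.5-fold higher and 5 were lower, beside 12.4 and 12.6% of all genes. The median log2 ratio was -0.30, before the upward shift of 0.17 that median-of-ratios scaling gives all genes. Nfkbia, the inhibitor that NF-kB induces against itself, had 1492 CPM in the 1V209-Cho-Lip neutrophils and 2158 CPM in the PBS neutrophils (0.691, 0.669 to 0.714), and the related Nfkbid had 295 and 499.7 CPM (0.591, 0.552 to 0.634). Rel, one of the subunits, had 147 and 221 CPM (0.664, 0.599 to 0.736), while Rela had 55.7 and 55.8 CPM and Nfkbiz 1292 and 1295 CPM. The Rel call is not stable, since its ratio was within 1.5-fold in 7 of 13 other settings. Cxcl2, whose level was alike in both libraries, is shown here because its promoter window (chr5:90903649-90903948, plus strand, GRCm38.p6, RefSeq) held 2 matches to GGNNTTTCC, part of the NF-kB consensus, in capitals. The form was searched on both strands, and 5.83% of 32544 distinct windows held it.
Cxcl2: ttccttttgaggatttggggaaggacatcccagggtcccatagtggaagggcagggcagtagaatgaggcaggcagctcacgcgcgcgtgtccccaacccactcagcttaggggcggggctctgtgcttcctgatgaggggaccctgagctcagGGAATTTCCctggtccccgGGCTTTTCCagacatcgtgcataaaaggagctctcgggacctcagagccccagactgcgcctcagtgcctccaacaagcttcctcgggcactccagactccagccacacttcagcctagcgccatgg
The window of Ccrl2 held 1 match to this form and those of Cd80, Irak2 and Il1b held none.

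Ccrl2, Cd80, Ptgs2, Thbs1 and Plaur, which come from different lists and were put together after their values were seen, were each lower in the 1V209-Cho-Lip library. Ccrl2, a receptor that binds the chemoattractant chemerin without signalling, had 1234 CPM in the 1V209-Cho-Lip neutrophils and 2619 CPM in the PBS neutrophils (0.471, 0.457 to 0.486). Its UMIs were seen in 35.6% of 1V209-Cho-Lip and 56.9% of PBS neutrophils at 500 UMIs and in 2.43 and 1.81% of B-cell-marker barcodes (62.7 and 76.3% of neutrophils without thinning). Cd80, a co-stimulatory ligand for T cells, had 207 and 493 CPM (0.421, 0.391 to 0.453) and was seen in 9.96 and 20.7% of neutrophils, beside 1.89 and 1.37% of B-cell-marker barcodes. Ptgs2, the inducible cyclooxygenase, had 924 and 1595 CPM (0.579, 0.557 to 0.602), Thbs1, a matrix glycoprotein, had 148 and 272 CPM (0.545, 0.496 to 0.600) and Plaur, the urokinase receptor, had 1947 and 2969 CPM (0.656, 0.637 to 0.674). Of 18 measured antigen presentation genes, Cd80 and H2-Q7 were past the threshold, both lower, and the class I gene H2-K1 lay at its edge, with 1353 and 2028 CPM (0.667, 0.645 to 0.690). Lower genes were 12.6% of all genes.

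Chemoattractant receptors went both ways, with 4 of 15 measured genes higher and 4 lower, beside 12.4 and 12.6% of all genes. Cxcr1, the second receptor for CXC chemokines, had 31.9 CPM in the 1V209-Cho-Lip neutrophils and 8.38 CPM in the PBS neutrophils (3.80, 2.37 to 6.49), and Ltb4r1 was higher as given above. Ptafr, the platelet-activating factor receptor, was lower (208 and 322 CPM; 0.647, 0.594 to 0.705), as was Ccrl2. The formyl peptide receptors Fpr1 (423 and 330.4 CPM) and Fpr2 (104 and 92.1 CPM) and the complement receptor C5ar1 (1258 and 1129 CPM) stayed within 1.5-fold. Of 20 measured adhesion and migration genes, 1 was higher and 2 were lower, and the integrin chain Itgam stood at 119 and 129 CPM.

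Of 16 measured oxidase and extracellular trap genes, 2 were lower and none was higher, a share of lower genes close to the 12.6% of all genes. Ncf1, the p47 organizer of the NADPH oxidase that makes superoxide, had 239 CPM in the 1V209-Cho-Lip neutrophils and 475 CPM in the PBS neutrophils (0.503, 0.468 to 0.541), and Padi4, which citrullinates histones when neutrophils cast extracellular traps, had 47.9 and 98.2 CPM (0.488, 0.416 to 0.575). The other 14 measured oxidase and trap genes stayed within 1.5-fold, among them Cybb, the catalytic subunit (73.2 and 74.0 CPM). At 500 UMIs, Ncf1 was seen in 10.9% of 1V209-Cho-Lip and 20.02% of PBS neutrophils; it was also seen in 4.86 and 6.23% of B-cell-marker barcodes, and B cells use the gene themselves. All 18 measured oxidative phosphorylation genes stayed within the threshold. Of 27 glycolysis and hypoxia genes, 4 were higher and 3 were lower, close to the 12.4 and 12.6% of all genes. Among the higher ones were Hif1a, the oxygen-sensitive transcription factor (285 and 156 CPM, ratio 1.82, 1.63 to 2.04), Gapdh (247 and 147 CPM) and Ldha (229 and 143 CPM).

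Survival genes past the threshold were mostly lower in the 1V209-Cho-Lip library. Of 23 measured survival and apoptosis genes 1 was higher and 8 were lower, beside 12.4 and 12.6% of all genes. Their median log2 ratio was -0.33, before the upward shift of 0.17 under median-of-ratios scaling. The higher one was Bcl2l1, which codes for the anti-apoptotic Bcl-xL (112 and 53.5 CPM; 2.10, 1.73 to 2.56). The lower ones counted both protective and lethal members: the anti-apoptotic Bcl2a1b (65.2 and 108 CPM), Bcl2a1d (24.7 and 47.9 CPM) and Bcl2 (7.72 and 13.96 CPM) on one side, and the pro-apoptotic Bcl2l11 (180.2 and 296 CPM; 0.608, 0.556 to 0.666) and Pmaip1 (53.3 and 134 CPM; 0.396, 0.344 to 0.457) on the other. Bcl2a1b and Bcl2a1d are near-identical copies and their split is uncertain. Mcl1, on which neutrophil survival depends, had 636 and 559.7 CPM.

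Of 17 measured C/EBP and myeloid transcription factors, 3 were higher and 2 were lower, with a median log2 ratio of -0.16, close to the shares over all genes. Cebpd, a C/EBP factor induced by inflammatory cytokines, had 835 CPM in the 1V209-Cho-Lip neutrophils and 57.2 CPM in the PBS neutrophils (14.6, 12.2 to 17.6), and its UMIs were seen in 32.6 and 2.42% of neutrophils at 500 UMIs (77.2 and 8.84% unthinned). Its ratio was 21.5 in the barcodes outside the rule and 35.8 in B-cell-marker barcodes, so other barcodes shared the direction. Dusp1, a phosphatase that switches off MAP kinases, had 6054 and 2053 CPM (2.95, 2.86 to 3.04) and likewise a ratio of 5.94 outside the rule. Spi1, the myeloid master factor PU.1, had 1108 and 710.5 CPM (1.56, 1.48 to 1.65), and Cebpb, the C/EBP factor of emergency granulopoiesis, 150.0 and 139.6 CPM. Of 31 measured immediate-early and stress genes, 8 were higher, among them Jun (214 and 115 CPM) and Fosl1 (176 and 94.5 CPM), and 5 were lower, among them Atf3 (386 and 649 CPM), Gadd45b (287 and 566 CPM) and Nr4a1 (979 and 1566 CPM). Of 15 measured glucocorticoid-responsive genes, 6 were higher, Cebpd and Dusp1 among them, and 1 was lower. The classical ones Tsc22d3 (558 and 650.0 CPM) and Fkbp5 (53.5 and 61.4 CPM) were not among the higher ones. The counts of this list and of the immediate-early list stand beside 12.4% higher and 12.6% lower over all genes.

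**Figure D4:**
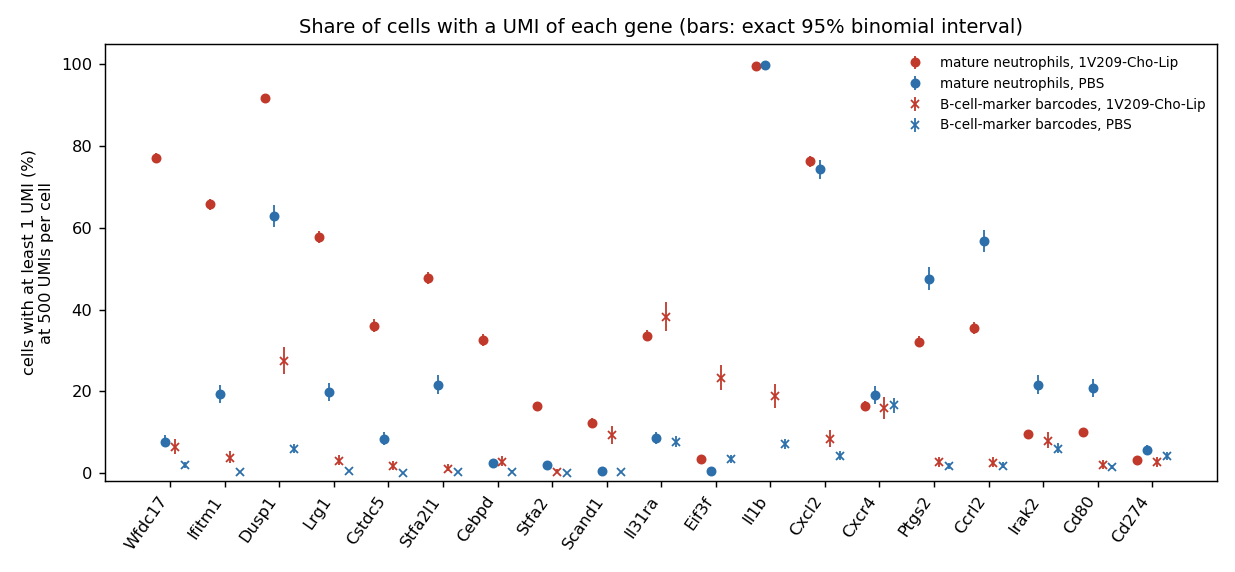
Share of cells with at least 1 UMI of a gene (y axis, %) after each cell was thinned to 500 UMIs, for mature neutrophils (circles) and B-cell-marker barcodes (crosses) of the 1V209-Cho-Lip and PBS libraries; bars are exact 95% binomial intervals. Wfdc17 was seen in 77.1% of 1V209-Cho-Lip and 7.63% of PBS neutrophils and in few B-cell-marker barcodes, whereas Il31ra was about as frequent, and Eif3f more frequent, in B-cell-marker barcodes of the same library.

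Genes linked to suppressive or tumour-associated neutrophils did not shift together. Of 29 measured, 6 were higher and 2 were lower, beside 12.4 and 12.6% of all genes. The higher ones included Wfdc17 and Ifitm1 from above and Tgfb1 (61.4 and 37.7 CPM, ratio 1.63, 1.29 to 2.08), and the lower ones were Ptgs2 and Cd274. Arg2, the mitochondrial arginase, had 899 CPM in the 1V209-Cho-Lip neutrophils and 916 CPM in the PBS neutrophils, and Cd84 had 359 and 329.9 CPM. Among growth factor and matrix genes, 6 of 15 were higher and 4 were lower, beside 12.4 and 12.6% of all genes. Areg, a ligand of the epidermal growth factor receptor, had 90.6 and 9.31 CPM (9.73, 6.27 to 16.0), but its UMIs were seen in only 2.04 and 0.529% of neutrophils at 500 UMIs.

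Of the 12 genes with the highest ratios among 2186 that were frequent enough to be named, 11 had a ratio of at least 1.5 in the barcodes outside the rule as well, and 10 in B-cell-marker barcodes. Of all 1098 higher genes, 538 were also at least 1.5-fold higher outside the rule. For some of the 12 the ratio was of like size or larger in other barcodes. Scand1, a gene with a SCAN protein domain, had 255 CPM in the 1V209-Cho-Lip neutrophils and 7.91 CPM in the PBS neutrophils (32.3, 20.1 to 55.5), with ratios of 53.4 outside the rule and 64.4 in B-cell-marker barcodes. Il31ra, a subunit of the interleukin-31 receptor, had 1453 and 198 CPM (7.35, 6.67 to 8.11), with ratios of 10.1 and 9.48 in those barcodes, and its UMIs were found in 33.6 and 8.46% of neutrophils and in 38.2 and 7.54% of B-cell-marker barcodes, so its share in neutrophils is not read as expression by them. The translation factor gene Eif3f (82.6 and 8.84 CPM; 9.34, 5.95 to 15.6) and the small GTPase gene Rab24 (71.1 and 9.77 CPM; 7.28, 4.73 to 11.8) had ratios of 6.57 (Eif3f) and 6.82 (Rab24) outside the rule. Cebpd differed more outside the rule (ratio 21.5) than in neutrophils (14.6). Dusp1, described above and not among the 12, also had a ratio of 4.88 in B-cell-marker barcodes. For these 5 genes and Dusp1 a property of neutrophils and a property of the whole library cannot be told apart.

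Igfbp6, Areg and Ager differed less outside the rule than in neutrophils. Igfbp6, a binding protein of insulin-like growth factor, had 258 CPM in the 1V209-Cho-Lip neutrophils and 30.7 CPM in the PBS neutrophils (8.40, 6.58 to 10.9), with a ratio of 1.44 outside the rule; it was seen in 10.3 and 1.21% of neutrophils and in 1.21 and 0.623% of B-cell-marker barcodes at 500 UMIs. Areg had a ratio of 1.92 outside the rule. Ager, a marker of flat alveolar epithelial cells, had 137 and 19.1 CPM and a ratio of 2.23 outside the rule, and was found in 1.85 and 0.680% of neutrophils but also in 2.56 and 1.06% of B-cell-marker barcodes, which is at background. The remaining members of the 12 are described above: Wfdc17 also differed less outside the rule, whereas Cebpd, Stfa2, Stfa3 and Cstdc5 differed more there.

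Among the 12 genes with the lowest ratios, Gzma, Nkg7, Ccl5 and Cd3d are known as lymphocyte genes. Gzma, a granule protease of killer cells, had 25.9 CPM in the 1V209-Cho-Lip neutrophils and 175 CPM in the PBS neutrophils (0.148, 0.126 to 0.172), Nkg7 had 9.83 and 56.8 CPM and the chemokine Ccl5 58.0 and 211 CPM. At 500 UMIs, Gzma UMIs were seen in 0.437 and 1.44% of neutrophils and in 0.540 and 1.87% of B-cell-marker barcodes, so these values are at background. Cd3d, of the T-cell receptor complex, had 40.7 and 104.7 CPM. At 500 UMIs it was seen in 2.06 and 5.14% of neutrophils and in 0.405 and 0.249% of B-cell-marker barcodes. Unlike Gzma, it thus stood above that background in both libraries. Genes less tied to lymphocytes included Il23a and Pmaip1, given above, Rap1gap2, an inhibitor of the GTPase Rap1 (59.5 and 161 CPM; 0.369, 0.323 to 0.421), Rnase6, an antimicrobial ribonuclease (32.1 and 98.2 CPM; 0.327, 0.275 to 0.390), Mideas (132 and 328 CPM; 0.404, 0.369 to 0.442), the heat-shock family gene Hspa4l (70.9 and 177 CPM), Ss18l2 (27.6 and 88.9 CPM) and Ehbp1 (12.1 and 59.1 CPM). Of the 12, 3 were also at least 1.5-fold lower outside the rule and 6 in B-cell-marker barcodes. Ehbp1 (ratio 0.376), Hspa4l (0.476) and Il23a (0.457, from 2 and 8 UMIs) were among those 6. Of all 1119 lower genes, 115 were also at least 1.5-fold lower outside the rule.

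The 300-base promoter windows of these genes were searched for 3 motif forms on both strands. The form TTGCNNAA, part of the C/EBP consensus, was held by 1 of the 11 highest genes that had a window (Cstdc5), by 1 of the 9 lowest (Rnase6) and by 10.8% of all windows. GENCODE places the start of Cstdc5 further upstream (chr16:36359382-36367748, minus strand). By that annotation its match lies inside the gene and not before its start. The interferon-response form GAAANNGAA was held by none of the 11 and by 2 of the 9 (Gzma and Rnase6), beside 8.53% of all windows. GGNNTTTCC was held by none of either set. The window of Wfdc17, which had the largest ratio among genes above 500 CPM, held none of the 3 and is printed in full (chr11:83703806-83704105, plus strand, GRCm38.p6, RefSeq).
Wfdc17: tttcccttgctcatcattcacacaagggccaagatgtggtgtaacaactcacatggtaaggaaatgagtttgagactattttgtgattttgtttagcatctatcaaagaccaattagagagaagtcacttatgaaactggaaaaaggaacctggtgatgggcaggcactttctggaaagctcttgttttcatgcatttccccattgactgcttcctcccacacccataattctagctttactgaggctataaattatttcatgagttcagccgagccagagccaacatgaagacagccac

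Among 19 genes inspected, the pairs most alike across cells were S100a8, S100a9 and Retnlg, which the rule had used. At 500 UMIs per cell, Spearman's rho across cells between S100a8 and S100a9 was 0.74 over 4117 cells of the 1V209-Cho-Lip library and 0.68 over 1324 of the PBS library, and between S100a8 and Retnlg it was 0.46 and 0.45. Cells rich in S100a8 had somewhat less Il1b (rho -0.24 and -0.18). Cstdc5 and Cstdc4 had a rho of 0.32 and 0.15, and Stfa2l1 and Cstdc4 of 0.31 and 0.26. These points share a library and a depth, and genes that take a large share of UMIs leave less to others. Over all pairs of these genes, the middle of the values lay near 0.

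Because 1V209-Cho-Lip neutrophils held more S100a8 and S100a9 (a median of 12.7% of UMIs, against 9.07% in PBS neutrophils), the main genes were compared again within 4 ranges of that share, with both genes left out of the totals. The ranges of 3 to 6%, 6 to 10%, 10 to 15% and above 15% held 551, 875, 1148 and 1543 cells of the 1V209-Cho-Lip library and 329, 434, 354 and 207 cells of the PBS library. Wfdc17 had ratios of 16.7, 22.3, 26.8 and 24.7 over the ranges, Ifitm1 of 5.39, 7.07, 5.88 and 6.11, and Dusp1 of 2.80, 2.94, 3.40 and 3.13. Cstdc5 had ratios of 5.79, 5.64, 4.64 and 6.61, and its level climbed with S100 in both libraries. Ccrl2 had ratios of 0.540, 0.527, 0.528 and 0.435 and Cd80 of 0.367, 0.451, 0.515 and 0.433. The differences in these genes kept their direction in all 4 ranges. The ranges and the genes were chosen after the data had been seen, and the rule itself used the S100a8 and S100a9 share. The split is therefore a description. Whether the S100a8 and S100a9 difference accounts for the other differences was not tested.

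Other genes varied more over the ranges. Stfa2 had ratios of 26.6, 11.6, 10.9 and 6.50, the first from 5 PBS UMIs. Icam1, an adhesion molecule induced on activated and ageing neutrophils, had 99.5 CPM in the 1V209-Cho-Lip library and 131 CPM in the PBS library over all cells (0.761, 0.668 to 0.871), but its ratio was 1.34 (1.07 to 1.68) at 3 to 6% S100 and 0.582 (0.391 to 0.898) above 15%. Il1b had ratios of 0.829, 0.924, 0.998 and 0.958.

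**Figure D5:**
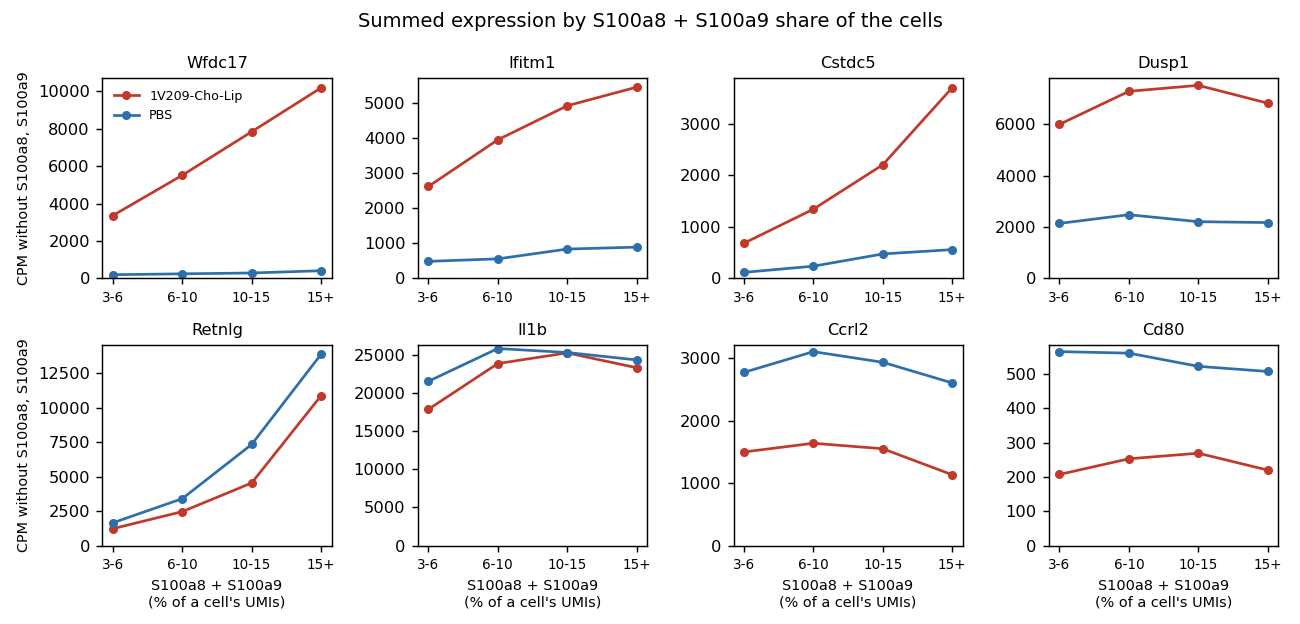
Summed CPM, with S100a8 and S100a9 left out of the total, of 8 genes in mature neutrophils split by the percent of a cell's UMIs from S100a8 and S100a9 (x axis); 1 line per library. Wfdc17, Ifitm1, Cstdc5 and Dusp1 are higher in the 1V209-Cho-Lip library and Ccrl2 and Cd80 lower at every range, and Il1b is close; Retnlg, a gene of the rule, is drawn as a description only.

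The less mature, granule-rich neutrophils (87 cells in the 1V209-Cho-Lip library, 19 in the PBS library) were the closest set for comparison. Several of the higher genes were higher there too: Stfa2 had 1285 CPM in the 1V209-Cho-Lip library and 19.7 CPM in the PBS library, Cstdc5 had 3685 and 355 CPM, Lrg1 had 1453 and 306 CPM, and Wfdc17 had 2234 CPM in the 1V209-Cho-Lip library and no UMI in the PBS library. Igfbp6 went the other way, with 31.0 CPM in the 1V209-Cho-Lip library and 256 CPM in the PBS library (17 and 26 UMIs; 0.121, 0.0616 to 0.232), and Areg had 2 UMIs in the 1V209-Cho-Lip library and 3 in the PBS library. Some genes that were level or lower in mature cells had ratios above 1 in the granule-rich ones: Ccrl2 had 329 and 168 CPM (1.96, 1.19 to 3.44) and Il1b 5515 and 2641 CPM (2.09, 1.84 to 2.37). The difference between the 2 stages was not tested, and the PBS values rest on 19 cells.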

How the data were processed

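The measurements were UMI counts per gene and barcode, as the authors deposited them: filtered matrices written by Cell Ranger 9.0.1, per the file headers, on mm10, per the labels; the annotation release is not given in the sources used here. One library per group was made from the pooled lungs of 3 mice, per the series' design text. Whether the mice of a pool were sampled together is not given either.

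Members and gene lists were chosen with earlier results of these data known. UMIs were summed over the neutrophils of each library and scaled to CPM. Ratios carry exact conditional binomial intervals, levels exact Poisson intervals and shares exact Clopper-Pearson intervals, all at 95% and all covering counting error only; UMIs of pooled animals say nothing of the spread between animals. Genes with at least 50 UMIs over both libraries were measured, and 1.5-fold was the size threshold. Genes were named if they were among the 12 highest or 12 lowest ratios with at least 100 UMIs, at least 50 CPM in one library and at least 20% of the level in other barcodes (leaving out mitochondrial, ribosomal protein, haemoglobin, receptor segment, predicted and rule genes), or belonged to a list. Cd79a+Cd79b+Ms4a1 of at least 3 UMIs defined B-cell-marker barcodes and Cdh5+Cldn5+Kdr endothelial ones.

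Scrublet (Scanpy 1.11.5) called 1455 barcodes (10.6%) of the 1V209-Cho-Lip library and 1906 (13.1%) of the PBS library doublets; the 173 and 51 called neutrophils were kept, and an alternative left them out. Alternatives also changed the rule, the scaling (TMM from edgeR 4.0.16, median of ratios) and the minimum count. The ratio and interval script was tested on simulated data. Gene positions are from GENCODE vM21 and promoter windows from RefSeq, both on GRCm38. The scripts ran under Python 3.11.15 with scipy 1.17.1 for the intervals.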

Additional observations from a re-analysis of the deposited data

How the results depend on the processing

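No paired analysis was possible because there was 1 library per group; for the same reason no library could be left out. The ratio of mature neutrophil shares, 3.30, was 3.57 with S100a8 and S100a9 at 5% or more, 3.08 at 1% or more, 3.60 for barcodes of at least 1000 UMIs and 2.82 for those of 1000 to 3000 UMIs. The last range, like allowing Cd79a, Cd3e and Cdh5 and leaving out shared barcodes, was chosen after seeing the data. So were the ranges of S100a8 and S100a9 share used above. Against 1098 higher and 1119 lower genes, 482 and 480 passed in cells thinned to 500 UMIs, where fewer genes were measured. Asking for 20 UMIs gave 1765 and 1886 genes, and asking for 200 UMIs gave 468 and 366. Median-of-ratios scaling left 646 lower genes, and cells of 1000 to 3000 UMIs left 668 higher ones. Among 129 genes of the text at least 1.5-fold apart, 126 kept their sign under all 13 settings tried for single genes and 88 stayed 1.5-fold apart. In cells of 1000 to 3000 UMIs the log2 ratio of Chil3 turned to -0.060, that of Vegfa to -0.15 and the median of the alveolar macrophage markers to -0.18; the cause was not tested. Ngp turned to -2.30 when cells with an Ngp, Camp or Ltf UMI were left out, where no Ngp UMI is left by construction and the value reflects only the 0.5 count added to a 0. Shares of cells with a UMI depend on depth, which was 1.65 times higher in the 1V209-Cho-Lip neutrophils, and 61 of 66 moved between the thinned and the deposited counts.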

Other observations

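Of 16 measured genes of colony-stimulating factor signalling, 3 were higher and 1 was lower, beside 12.4 and 12.6% of all genes. Csf2rb2, the mouse interleukin-3 receptor beta chain, had 50.1 CPM in the 1V209-Cho-Lip neutrophils and 20.01 CPM in the PBS neutrophils, a ratio of 2.51, and the common beta chain Csf2rb had 563 and 391 CPM, a ratio of 1.44 that is inside the threshold. Ifngr2, a chain of the interferon gamma receptor, was the only one of 10 measured interferon receptor and signalling genes past 1.5-fold, with 107 and 62.3 CPM (ratio 1.71). Siglece, an inhibitory receptor for sialic acids on neutrophils, was the only one of 22 phagocytosis and Fc receptor genes past it, with 387 and 251 CPM (ratio 1.54).

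Of 13 lipid mediator genes, 1 was higher and 3 were lower; Alox5ap, which feeds arachidonic acid to the leukotriene pathway, stood inside the threshold at 2546 CPM in the 1V209-Cho-Lip neutrophils and 1833 CPM in the PBS neutrophils (ratio 1.39). Of 7 measured proliferation genes, 2 were lower, with Mki67 at 4.48 CPM in the 1V209-Cho-Lip neutrophils and 9.77 CPM in the PBS neutrophils. These differences have no replicate check either.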
